A study of Mus musculus and Acomys cahirinus with 25 samples.

Results

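The genes described here are the ligands and receptors of the 4 classical axon guidance systems, as measured in the epidermis and dermis of mouse wounds and unwounded skin. They were chosen by symbol and family, by a rule that does not use their values, though earlier results of these data were known. They comprise 70 of the 24500 genes listed for each library. The ligands are 20 semaphorins, 5 ephrin-A, 3 ephrin-B, 3 Slit and 4 netrin genes. The receptors are 9 plexins, 2 neuropilins, 9 EphA, 5 EphB, 4 Robo and 4 Unc5 genes, with Dcc and its relative neogenin, Neo1. The netrin-G and Slitrk genes were left out as other families.

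These systems were first known from the steering of growing axons and are also used outside the nervous system. Semaphorins are secreted or membrane-bound cues read by plexins, and the secreted class 3 semaphorins mostly need a neuropilin as co-receptor; Nrp1 and Nrp2 also bind vascular endothelial growth factors. Ephrins are held in the membrane and bind Eph receptor tyrosine kinases on the neighbouring cell, so that both cells receive a signal, which sorts cells and sets tissue boundaries. Slits are secreted and bind Robo receptors, and netrins bind Dcc, Neo1 and the Unc5 receptors. In skin, Eph receptors and ephrins are known from keratinocyte adhesion and differentiation, and semaphorins, plexins, neuropilins and Robo4 from blood vessels and cutaneous nerves.

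Poly(A) RNA of 25 wound libraries was sequenced, 13 from lab mouse (Mus musculus) and 12 from the African spiny mouse Acomys cahirinus, a species that regrows hair follicles across a wound. Lab mice were mainly C57BL/6J, 4 weeks old at wounding, and carried a 1 cm × 1 cm full-thickness dorsal wound that was collected at post-wound day (PWD) 14, when a punch separated the wound center from the surrounding margin; its diameter is 3 mm in the methods but 5 mm where the epidermis is described. Wild-type (WT) lab libraries comprised 2 of epidermis center, 2 of epidermis margin, 5 of dermis center and 2 of dermis margin, and 2 further libraries were center dermis of K14-Cre-Twist1 mice (KO), in which Cre driven by the keratin 14 promoter deletes a loxP-flanked Twist1 in keratinocytes, so that the dermis measured is not the tissue of the deletion. The KO came from a cross of Twist1 conditional and Tg(KRT14-cre)1Amc/J mice whose controls were Twist1+/+, so its WT controls (center dermis replicates 3 to 5) may differ in background from the other WT libraries, with which they are pooled in the comparison of tissues at the lab center. Spiny mice were 2 months old, of both sexes, untreated apart from a 1.5 cm wound, and gave epidermis at PWD0 (1 library), PWD14 (2), PWD21 (2) and PWD28 (1) and dermis at PWD0 (2), PWD14 (1), PWD21 (2) and PWD28 (1). These are the days of the sample labels; a sample table of the study lists the wound libraries as days 15, 20 and 30. Lab tissues were parted by hand and spiny tissues with trypsin, and the study describes its replicates as independent without giving the animals behind each library, so p-values measure the spread between these libraries. Wounds were harvested whole before the tissues were parted, so epidermis and dermis libraries may share wounds, and no label links them.

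Reads assigned to genes numbered 19413261 to 86532134 per lab library and 5669760 to 34751956 per spiny library. The 13 keratinocyte markers summed to 219700 to 291500 CPM (read counts scaled by library size) in lab epidermis, and the 13 fibroblast markers to 72520 to 146800 CPM in lab dermis, so both tissue labels were borne out by their markers. KO dermis replicate 2 stood apart with 30720 CPM of keratinocyte markers, against 939 CPM in replicate 1 and 31.3 to 574 CPM in the 5 WT center dermis libraries. Twist1, the deleted gene, was at 66.8 and 38.0 CPM in the KO dermis and at 51.6, 32.2 and 94.4 CPM in WT center dermis replicates 3 to 5, which in this tissue does not check the labels. All spiny reads were mapped to the mouse genome, and levels are compared within a species only. Of these bulk tissues, a smaller number of cells of a type and less RNA per cell cannot be told apart.

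Levels of different members were compared as mean CPM per kilobase of exon. In lab epidermis (4 libraries) the receptor Ephb6, an Eph family member whose kinase domain is inactive, had the highest level at 77.8 CPM per kb, followed by the ligand Efna3 at 52.7, the receptor Epha1 at 45.9 and the plexin Plxnb2, a receptor of class 4 semaphorins, at 37.2. Spiny epidermis (6 libraries) had the same 4 members at the top in the same order, at 216, 80.0, 72.4 and 54.3 CPM per kb. Between libraries Ephb6 ranged from 156 to 395 CPM in lab and from 601 to 1016 CPM in spiny epidermis, and Efna3 from 54.1 to 178 CPM and from 75.6 to 391.9 CPM. Epha1 ranged from 103 to 226 CPM in lab and from 173 to 414 CPM in spiny epidermis, so that within either species the ranges of Efna3 and Epha1 overlapped.

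The dermis led with other members. In WT lab dermis (7 libraries) these were Plxnd1, the endothelial semaphorin receptor, at 31.3 CPM per kb, Plxnb2 at 28.4, the membrane-anchored semaphorin Sema7a at 20.7 and the co-receptor Nrp1 at 20.03. In spiny dermis (6 libraries) they were the ligand Slit3 at 33.1, Plxnb2 at 31.8, Efnb1 at 31.0 and Efna3 at 29.5 CPM per kb. Efna3 in spiny dermis ranged from 4.42 to 203 CPM between libraries, and Plxnb2 from 136 to 334 CPM. A mean of at least 1 CPM was reached by 49 of the 70 members in lab epidermis, 61 in lab dermis, 53 in spiny epidermis and 61 in spiny dermis.

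**Figure D1:**
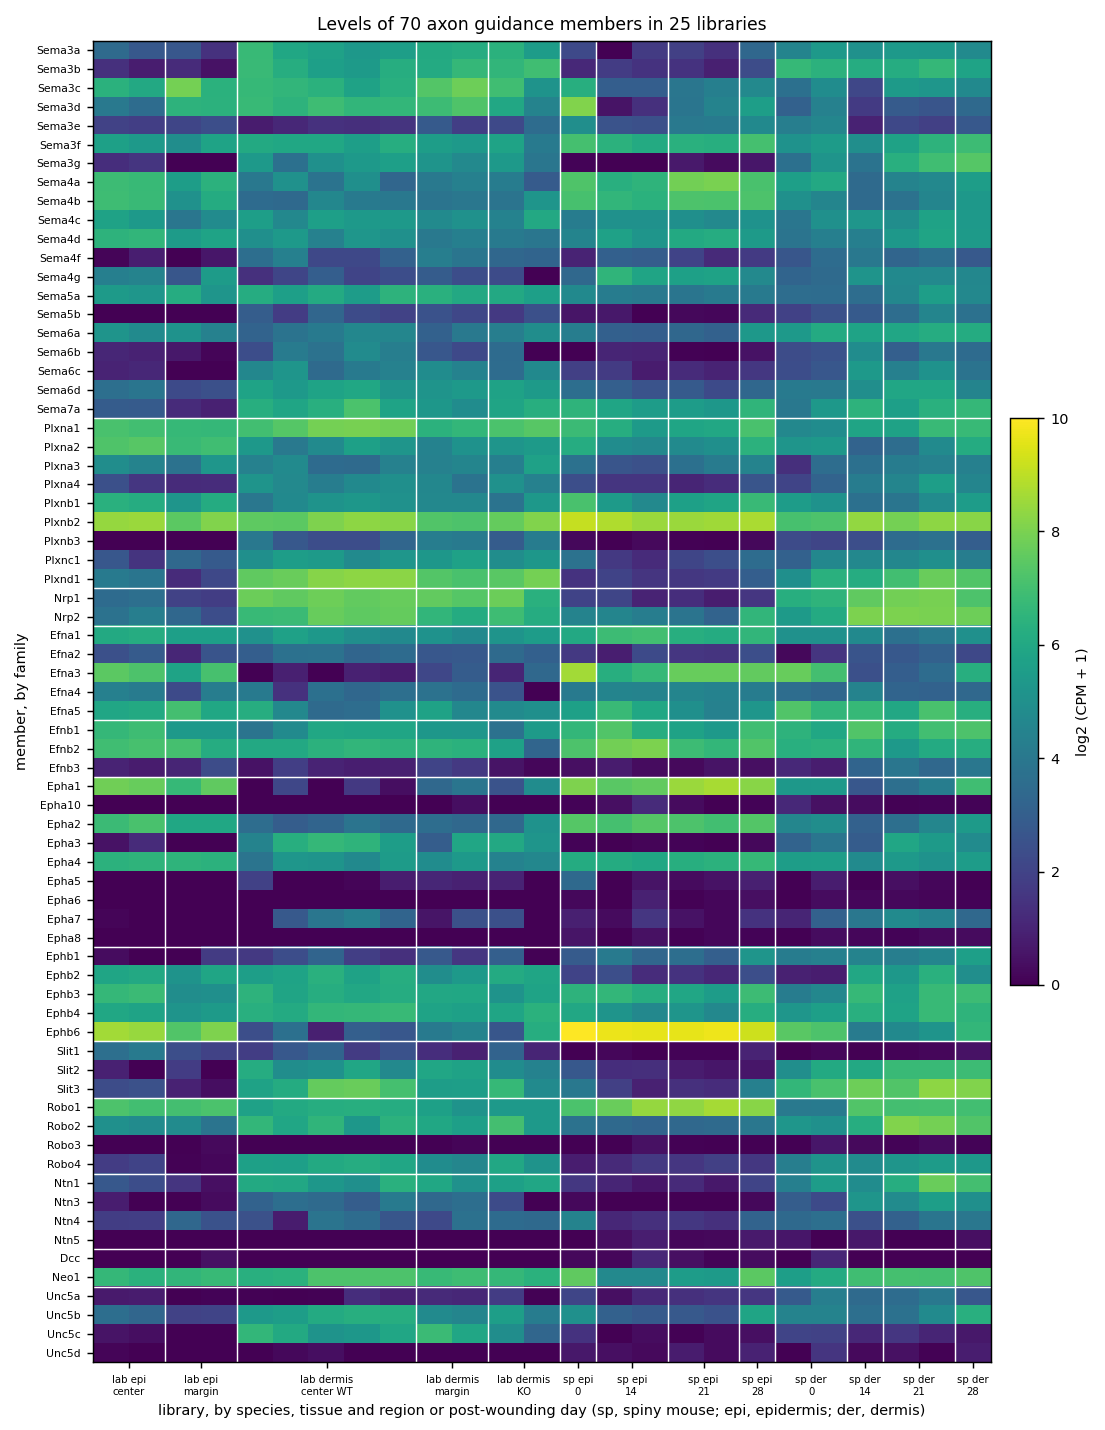
Heatmap of all 70 members (rows, grouped by family) in the 25 libraries (columns, grouped by species, tissue and condition), coloured by log2(CPM + 1). Ephb6, Efna3 and Epha1 are bright in every epidermis library of both species, Nrp1, Plxnd1 and Slit3 in every dermis library, and Dcc, Epha6, Epha8, Epha10, Ntn5, Robo3 and Unc5d are near 0 nearly throughout.

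Epidermis was compared with dermis in 3 sets of libraries that share no library: spiny wounds at PWD21, the lab wound center and the lab wound margin. A gene was called where its false discovery rate (FDR) fell below 0.05, from edgeR's quasi-likelihood test with adjustment over every gene tested. Of 63 members tested in each set, 15 were called higher and 37 lower in spiny epidermis (all genes: 62.9% called, 29.4% higher and 33.5% lower), 17 higher and 28 lower in lab center epidermis (51.8%, 26.8% and 25%) and 13 higher and 28 lower in lab margin epidermis (47.7%, 20.9% and 26.8%). The median log2 difference of the members was −1.59, −0.63 and −0.45, beside −0.06, −0.08 and −0.16 over all genes. With library sizes alone in place of trimmed mean (TMM) factors, the lab counts became 9 higher and 35 lower at the center and 7 and 33 at the margin, and the median of all genes moved to −0.80 and −0.98; lab epidermis was also sequenced paired-end and lab dermis single-end, so read type and tissue cannot be told apart there, whereas the spiny tissues share a read type. Of 62 members tested in all 3 sets, 24 were lower in epidermis in each (38.7%; all genes 16.9%) and 10 higher (16.1%; all genes 13.3%).

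The 10 members called higher in the epidermis of all 3 sets were the ligands Efna3, Sema4a, Sema4b and Sema4g and the receptors Epha1, Epha2, Epha4, Ephb6, Plxnb1 and Robo1. Ephb6 measured 799 and 854 CPM in spiny PWD21 epidermis and 26.1 and 35.3 CPM in the matching dermis. The lab epidermis had 395 and 354 CPM of Ephb6 at the center and 156 and 269 CPM at the margin, against 0.844 to 11.8 CPM in the 5 center dermis libraries and 15.8 and 21.1 CPM in margin dermis. No epidermis library of Ephb6 came near a dermis library, and its log2 difference was 4.72 ± 0.25 (SE), 6.01 ± 0.61 and 3.55 ± 0.38 in the spiny, lab center and lab margin sets. Efna3 measured 201 and 206 CPM in spiny PWD21 epidermis and 6.88 and 10.6 CPM in the dermis, and 178 and 145 CPM in lab center epidermis against at most 0.894 CPM in center dermis. Epha1, a receptor of A-type ephrins, was at 359 and 414 CPM in spiny PWD21 epidermis and 11.7 and 18.1 CPM in its dermis, and at 226 and 202 CPM against at most 3.38 CPM at the lab center. The log2 differences of Efna3 (4.51 ± 0.27, 8.45 ± 0.73 and 4.27 ± 0.53) and of Epha1 (4.66 ± 0.28, 7.61 ± 0.97 and 3.67 ± 0.41) were called in every set, with FDR values from 4.706e-06 to 0.000125 in edgeR's quasi-likelihood test.

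The other epidermal members differed by less. Epha2, which keratinocytes use in cell-cell adhesion, had log2 differences of 2.91 ± 0.34, 3.67 ± 0.25 and 2.62 ± 0.37 in the spiny, lab center and lab margin sets. The membrane semaphorin Sema4a differed by 3.39 ± 0.20, 2.49 ± 0.43 and 1.94 ± 0.39, and Sema4b by 3.02 ± 0.29, 2.92 ± 0.31 and 1.91 ± 0.44. Robo1, a Slit receptor, differed by 1.44 ± 0.20, 1.001 ± 0.19 and 1.71 ± 0.33 and kept a dermal level of 34.3 to 76.9 CPM in WT lab wounds. Among its ligands, Slit2 and Slit3 were on the dermal side in all 3 sets.

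Efna3 (chr3:89313899-89322939), Epha1 (chr6:42358487-42373314) and Ephb6 (chr6:41603834-41620509) are the 3 leading epidermal members, and Ephb6 and Epha1 lie 738 kb apart on chromosome 6; Efna3 lies between Efna1, 32.9 kb away, and Efna4, 10.5 kb away. Their promoters, and that of Sema3d (chr5:12383161-12588953), which led the wound center comparison in epidermis, are shown because the study deleted Twist1, a basic helix-loop-helix factor of the kind that binds the E-box, CANNTG, which reads the same way on both strands. Each line holds the 250 bases before the most upstream start in the promoter set used (RefSeq, GRCm38.p6), on the gene's strand, with E-boxes in capitals. The windows are chr3:89322940-89323189 (−) for Efna3, chr6:42373269-42373518 (−) for Epha1, chr6:41605261-41605510 (+) for Ephb6 and chr5:12382916-12383165 (+) for Sema3d. The Ephb6 window lies inside the annotated gene because another of its transcripts starts further upstream. The Epha1 and Sema3d windows overlap the start of the annotated gene.
Efna3: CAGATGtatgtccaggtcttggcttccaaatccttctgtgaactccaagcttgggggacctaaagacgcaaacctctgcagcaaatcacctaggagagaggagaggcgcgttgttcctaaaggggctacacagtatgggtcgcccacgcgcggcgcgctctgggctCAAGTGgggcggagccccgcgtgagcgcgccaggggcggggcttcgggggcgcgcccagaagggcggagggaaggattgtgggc
Epha1: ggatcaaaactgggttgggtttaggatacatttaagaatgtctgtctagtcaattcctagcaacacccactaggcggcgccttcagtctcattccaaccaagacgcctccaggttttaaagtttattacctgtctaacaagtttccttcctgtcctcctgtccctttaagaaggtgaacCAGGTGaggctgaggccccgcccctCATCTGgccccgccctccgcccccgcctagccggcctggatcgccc
Ephb6: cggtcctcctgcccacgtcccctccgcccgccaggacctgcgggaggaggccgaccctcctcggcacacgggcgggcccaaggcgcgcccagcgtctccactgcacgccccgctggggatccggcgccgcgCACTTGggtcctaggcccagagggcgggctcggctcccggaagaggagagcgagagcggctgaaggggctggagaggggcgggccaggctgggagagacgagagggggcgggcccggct
Sema3d: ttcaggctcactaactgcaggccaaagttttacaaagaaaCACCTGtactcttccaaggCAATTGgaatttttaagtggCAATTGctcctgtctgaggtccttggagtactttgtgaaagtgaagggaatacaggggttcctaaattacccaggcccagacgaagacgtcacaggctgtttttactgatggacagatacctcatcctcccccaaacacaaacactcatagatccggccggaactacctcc
Efna3 and Epha1 hold 2 E-boxes each, Ephb6 1 and Sema3d 3, and their GC content is 63.6%, 54.4%, 76.8% and 46.8%. An E-box was found in 28 of the 60 members listed by RefSeq (46.7%) and in 66.1% of the 27025 promoters of the same length, so the motif was not more frequent among the members. Efna3 shares 14.1% of its exonic bases with an antisense gene and Epha1 6.01% with Zyx on the opposite strand. The lab libraries were strand-specific, but the spiny libraries were not, and reads of the overlapping parts cannot be told apart there.

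The 24 members called lower in the epidermis of all 3 sets held 8 semaphorins that are secreted or membrane-bound, both neuropilins and 4 plexins. Nrp1 was at 1.51 and 0.748 CPM in spiny PWD21 epidermis and at 233 and 248 CPM in dermis. In lab wounds Nrp1 was at 10.4 and 11.7 CPM in center epidermis and 2.93 and 2.54 CPM in margin epidermis, against 164 to 218 CPM over the 7 WT dermis libraries. The groups did not overlap, and the log2 difference of Nrp1 was −7.69 ± 0.37, −4.19 ± 0.22 and −6.01 ± 0.39 in the spiny, lab center and lab margin sets. Plxnd1, its partner receptor on endothelial cells, differed by −6.30 ± 0.32, −4.12 ± 0.31 and −5.83 ± 0.47, and the class 3 ligand Sema3b by −5.97 ± 0.39, −5.87 ± 0.56 and −6.80 ± 0.59.

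Of the Slit ligands, Slit2 and Slit3 were on the dermal side. Slit3 was at 1.63 and 1.44 CPM in spiny PWD21 epidermis and 153 and 317 CPM in dermis, and its log2 difference was −7.26 ± 0.43, −4.93 ± 0.65 and −6.51 ± 0.62. Slit2 differed by −7.44 ± 0.28, −6.50 ± 0.93 and −6.02 ± 0.96. Slit1 was called on the epidermal side at the lab center, at 11.7 and 16.0 CPM against 2.37 to 8.31 CPM in dermis (1.54 ± 0.51), was not called at the margin (1.59 ± 0.82) and had at most 1.003 CPM in any spiny library. The remaining dermal members were Robo2 and Robo4, the netrins Ntn1 and Ntn3, the netrin receptors Unc5b and Unc5c, the receptors Epha3 and Epha7, the plexins Plxna4, Plxnb3 and Plxnc1, Nrp2, and Sema3a, Sema3g, Sema4f, Sema5b, Sema6b, Sema6c and Sema6d. Where a member had no read in the epidermis, only a lower bound on its fold can be given, set at 3 counts per library. By that bound Ntn3 was at least 216-fold higher in spiny dermis, Plxnb3 at least 97.3-fold and Sema5b at least 63.4-fold higher in lab center dermis, and Unc5c at least 708-fold higher in lab margin dermis.

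Differences of opposite sign in the 2 species were called for 3 of the 62 members (4.84%; all genes 4.21%). Sema3d, a secreted semaphorin, was at 13.8 and 21.2 CPM in spiny PWD21 epidermis and 6.35 and 5.20 CPM in dermis, a log2 difference of 1.55 ± 0.30. At the lab center Sema3d was at 15.5 and 10.8 CPM in epidermis and 87.2 to 116 CPM in dermis, a log2 difference of −2.93 ± 0.25. At spiny PWD14 its epidermal mean was 1.035 CPM, below every spiny dermis library (at least 2.24 CPM). The opposite sign of Sema3d thus applies to PWD21, and the tissues at PWD14 were not tested. Efnb1, a B-type ephrin, differed by −1.06 ± 0.29 in spiny and 1.33 ± 0.47 at the lab center, and Efna5 by −2.00 ± 0.39 in spiny and 1.34 ± 0.47 at the lab margin. Sema3d and Efnb1 were not called at the lab margin, nor Efna5 at the lab center. The species were sequenced with different read types and wounded at different ages. They were also compared at different days, PWD21 in spiny and PWD14 in lab wounds, and the difference between them was not tested. Ephb2, a receptor of B-type ephrins, was at 1.72 and 1.15 CPM in spiny PWD21 epidermis and 39.3 and 80.0 CPM in dermis, whereas lab epidermis (34.5 to 64.8 CPM) and WT lab dermis (29.0 to 79.5 CPM) overlapped.

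**Figure D2:**
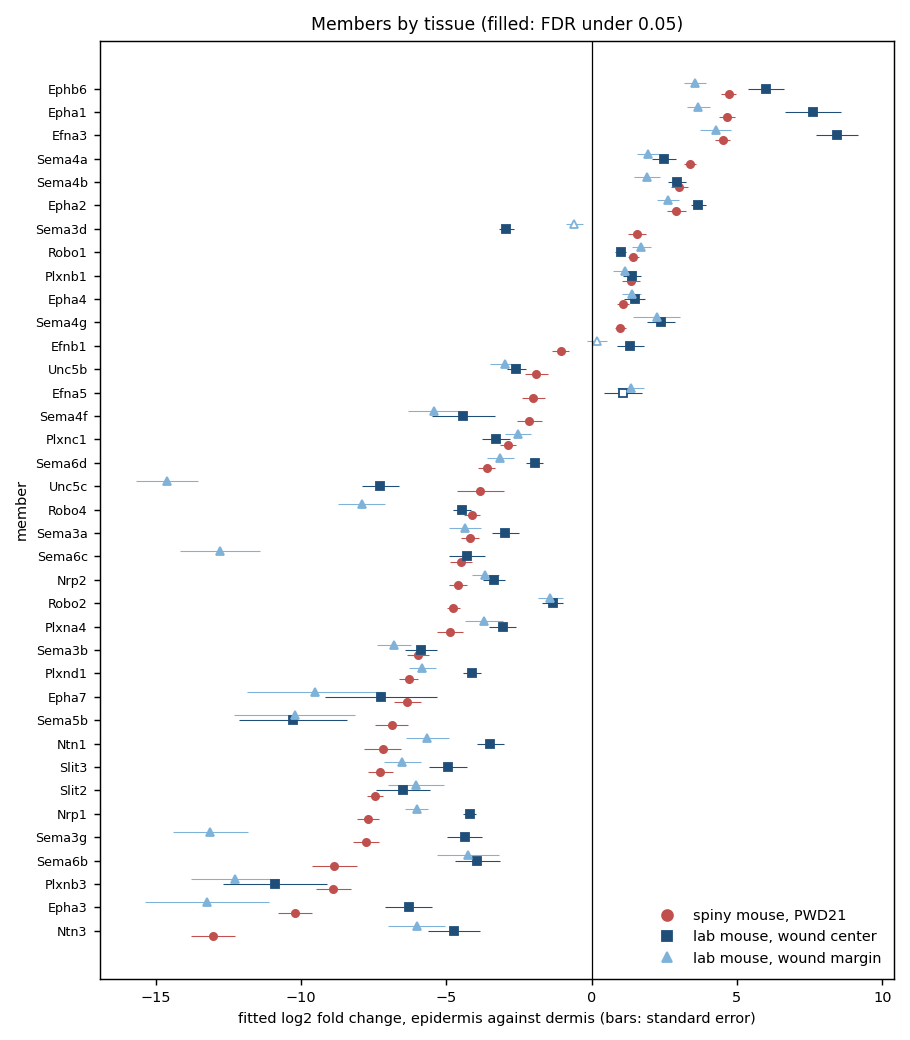
Fitted log2 difference of epidermis against dermis (x axis, with SE bars) for the 37 members called with 1 sign in all 3 sets or with opposite signs in the species (y axis), in spiny PWD21, lab center and lab margin wounds; filled points have an FDR under 0.05. Ephb6, Epha1 and Efna3 lie farthest to the right in all 3 sets, and fitted values of members with no or few epidermal reads, such as Ntn3, Plxnb3 and Unc5c, depend on the prior count.

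In the lab wound, new hair follicles form at the center only, and center was therefore compared with margin at PWD14. In the epidermis 2 of 58 members tested were called (all genes: 1.24%), Sema3d lower and Ephb3 higher at the center; both are given because they are the only calls, and Ephb3 was singled out after its values were seen. Sema3d measured 15.5 and 10.8 CPM at the center and 87.1 and 85.7 CPM at the margin. The margin libraries were close to each other and well above the center, with a log2 difference of −2.87 ± 0.27 and an FDR of 0.0367 in edgeR's quasi-likelihood test. Ephb3, a receptor of B-type ephrins, measured 100 and 111 CPM at the center and 29.1 and 30.4 CPM at the margin. Its groups did not overlap, and the log2 difference was 1.68 ± 0.22 with an FDR of 0.0398. The number of calls rested on single libraries and varied widely when 1 was left out, as given at the end. Each such fit left a group with a single library. Without margin replicate 2 the median log2 difference of all genes moved from −0.02 to 0.17. Counts from these fits are therefore not read as a result about the members.

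At an unadjusted p under 0.05, 20 members were higher and 4 lower at the epidermal center (all genes: 23.5% in all, 13.1% higher and 10.4% lower). The median log2 difference of the 58 members was 0.51, beside −0.02 over all genes. Robo4, the endothelial member of the Robo family, measured 2.39 and 3.03 CPM at the center and 0.0401 and 0.125 CPM at the margin, a log2 difference of 4.56 ± 0.86 with an FDR of 0.0617. Nrp1 measured 10.4 and 11.7 CPM against 2.93 and 2.54 CPM, and Plxnd1 15.9 and 13.8 CPM against 1.32 and 3.46 CPM. Slit3 measured 3.96 and 4.63 CPM at the center and 0.922 and 0.298 CPM at the margin. These 4 members were higher in both center libraries than in either margin library, and none passed the adjustment, with FDR values of 0.0617 to 0.0976. Sema7a and Ntn1 were also among those of unadjusted p under 0.05, at log2 differences of 2.48 ± 0.52 and 2.41 ± 0.78.

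Endothelial, fibroblast and pericyte markers moved with these members, while 4 of 5 Schwann markers tested were lower at the center. The 8 endothelial markers summed to 37.6 to 51.0 CPM in center epidermis and 2.20 to 9.87 CPM in margin epidermis, with all 8 higher at the center, and 7 of them at an unadjusted p under 0.05; lab dermis held 590 to 1461 CPM. The 13 fibroblast markers summed to 6747 to 8193 CPM at the center and 1064 to 3293 CPM at the margin, and the 6 smooth muscle and pericyte markers to 124 to 152 CPM and 15.02 to 27.2 CPM. The 7 hair follicle keratins went the other way, at 0.254 to 0.518 CPM in center and 8.78 to 56.7 CPM in margin epidermis. The part of these cells in the differences of Robo4, Nrp1, Plxnd1, Slit3 and Sema3d was not tested. Ephb3 and Sema3d stood at 56.3 to 86.2 CPM and 87.2 to 116 CPM in WT center dermis.

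In the dermis, no member was called between center (replicates 1 and 2) and margin by edgeR (all genes: 0.85%), while 13 of 63 had an unadjusted p under 0.05 (all genes: 15.8%, 5.11% higher and 10.7% lower) and DESeq2 called 3. With all 5 WT center libraries edgeR called 5 members, 2 higher and 3 lower. The shares of all genes are not given for DESeq2 or for the 5 libraries. Those counts are therefore not read as results about the members. The 6 members higher at the center at an unadjusted p were the semaphorins Sema4d (log2 difference 1.03 ± 0.34), Sema7a (1.01 ± 0.27) and Sema3f (0.54 ± 0.24) and the receptors Robo4 (0.98 ± 0.28), Unc5b (0.85 ± 0.29) and Plxna1 (0.67 ± 0.22). Robo4 measured 50.4 and 49.1 CPM at the center and 27.9 and 22.9 CPM at the margin. Among the 7 lower members, Epha1 measured 0 and 3.38 CPM at the center and 9.51 and 13.9 CPM at the margin, and Ephb6 4.22 and 11.8 CPM against 15.8 and 21.1 CPM. Efna3 measured 0 and 0.844 CPM against 3.43 and 6.53 CPM. These 3 epidermal members were lower in both center libraries, and all had an FDR of 0.206 or more. The keratinocyte markers were also lower at the center, 12 of 13 by sign and 7 by FDR, with 1912 to 3625 CPM at the margin. All 7 hair follicle keratins were lower at the center, 6 by FDR. They summed to 397 to 435 CPM at the margin and at most 2.72 CPM in the 5 WT center libraries. Of 8 Schwann markers, 6 were lower (2 by FDR) and 2 higher. The part of these cells in the values of Efna3, Epha1 and Ephb6 was not tested. Sema3c, a secreted semaphorin, measured 102 and 95.3 CPM at the center and 158 and 221 CPM at the margin, with the lowest FDR of the members at 0.0909.

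Whether the center-margin contrast differed between epidermis and dermis was tested with the interaction of tissue and region over 8 libraries. It was called for 8 of 63 members (all genes: 3.48%, with 3.34% positive and 0.135% negative). Sema3d had a log2 contrast of −2.87 in epidermis and −0.45 in dermis, a difference of −2.27 ± 0.38 with an FDR of 0.00900. The other 7 differences were positive: Nrp1 (1.85 ± 0.37), Efnb1 (2.28 ± 0.46), Plxnd1 (2.08 ± 0.46), Ephb3 (1.62 ± 0.38), Robo4 (3.71 ± 0.89), Slit3 (2.70 ± 0.67) and Efna3 (4.36 ± 1.09). All genes together had a median difference of 0.31. Efna3 differed through the dermis, where its log2 contrast was −3.60, and not through the epidermis, where it was 0.63. The dermal contrast of Efnb1 (−0.91) rested on center replicates 1 and 2, at 13.24 and 26.87 CPM against 38.06 and 37.25 CPM at the margin. Center dermis replicates 3 to 5, which were not in this test, had 61.4, 57.15 and 57.95 CPM. With all 5 center libraries the dermal difference of Efnb1 changed sign and was not called. The count of 8 also rested on single libraries, as given at the end. Fits without 1 library leave a group with a single library, and their counts are not read as a result about the members.

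**Figure D3:**
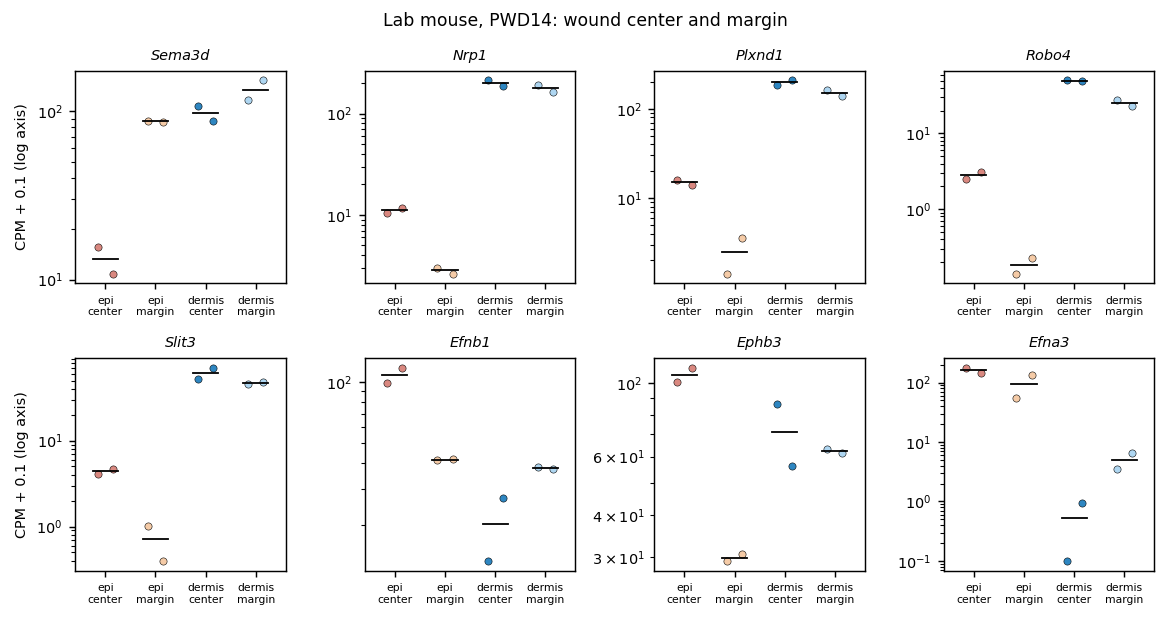
CPM + 0.1 (y axis, log scale) of members in each WT lab library, for epidermis and dermis at the wound center and margin, with dermis center replicates 1 and 2; each point is a library. In epidermis both center points of Sema3d lie below both margin points, at 10.8 and 15.5 CPM against 85.7 and 87.1 CPM, and those of Ephb3, Robo4, Nrp1, Plxnd1 and Slit3 lie above.

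In the center dermis of K14-Cre-Twist1 wounds, no member was called against WT center dermis replicates 3 to 5 by edgeR (all genes: 0.0565%), while 18 of 63 had an unadjusted p under 0.05 (all genes: 11.5%), 6 higher and 12 lower (6.98% and 4.54%), and DESeq2 called 3, all lower. The share of all genes called by DESeq2 is not given here, so its count is not read as a result about the members. The KO replicates did not resemble each other. Epha1 measured 4.88 and 28.0 CPM in KO replicates 1 and 2 and 0, 2.15 and 0.308 CPM in WT dermis, and Ephb6 5.31 and 74.6 CPM against 0.844, 7.11 and 5.59 CPM. Efna3 measured 1.07 and 9.47 CPM against 0, 0.894 and 0.685 CPM. KO replicate 2 was the high library for all 3, and replicate 1 lay within the WT range of Ephb6. The log2 differences were 4.58 ± 1.21, 3.23 ± 1.03 and 3.47 ± 1.33, with FDR values of 0.262 or more in edgeR's quasi-likelihood test. Of the 12 keratinocyte markers tested, 11 were higher in KO dermis at an unadjusted p under 0.05, and their sum was 939 CPM in replicate 1 and 30720 CPM in replicate 2; their part in these values was not tested.

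Members of both tissues were among the 12 with lower values. Besides Slit3 and Efnb2, those named by rule were Epha7 (log2 difference −2.638 ± 1.035), Ntn3 (−2.59 ± 1.102), Sema3d (−1.275 ± 0.433) and Unc5c (−1.225 ± 0.520). Their FDR values were 0.344 or more in edgeR's quasi-likelihood test. Epha7 and Ntn3 had no read in KO replicate 2. Sema3d averaged 42.3 CPM (SD 30.2) in KO and 102.6 CPM (SD 12) in WT dermis, without overlap. Nrp2 and Robo1 were not named by that rule and are given in addition. Slit3 and Nrp2 were on the dermal side in all 3 tissue comparisons and Robo1 on the epidermal side. Efnb2 was called higher in epidermis in spiny wounds and at the lab center. Slit3 measured 103 and 26.4 CPM in KO dermis and 196, 212 and 130 CPM in WT. Efnb2, an ephrin that marks arterial endothelium, measured 52.4 and 8.63 CPM against 84.1, 94.5 and 88.4 CPM. Nrp2, the class 3 semaphorin co-receptor, measured 117 and 71.8 CPM against 201, 183 and 197 CPM. Both KO libraries lay below these 3 WT libraries for Slit3, Efnb2 and Nrp2, with replicate 2 the lower, and the log2 differences were −1.46 ± 0.51, −1.54 ± 0.59 and −1.03 ± 0.27. Of 13 fibroblast markers, 10 also had negative differences (median −0.45), as had 5 of 6 smooth muscle and pericyte markers. Of 8 endothelial markers, 7 had positive differences. The part of these cells in the lower values was not tested. Robo1 was lower in both KO libraries, at 40.8 and 40.0 CPM against 71.2 to 76.9 CPM (log2 difference −0.86 ± 0.25, FDR 0.285). Sema3b had higher values, 96.1 and 120 CPM against 43.2 to 74.0 CPM (0.97 ± 0.30). The separation did not extend to WT center dermis replicates 1 and 2, which were not in this comparison and had 52.6 and 70.8 CPM of Slit3, 105 and 111 CPM of Nrp2, 64.2 and 63.8 CPM of Efnb2, 52.0 and 66.6 CPM of Robo1 and 108 and 73.2 CPM of Sema3b. For Slit3, Nrp2 and Sema3b these values overlapped those of the KO, and for Efnb2 and Robo1 they did not. Without KO replicate 1, replicate 2 was the only KO library, and the fit had to assume that it varies like the WT group. The median log2 difference of all genes was then −0.33, beside −0.07 with both replicates. Calls of members in that fit are therefore not read as a result about the members.

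**Figure D4:**
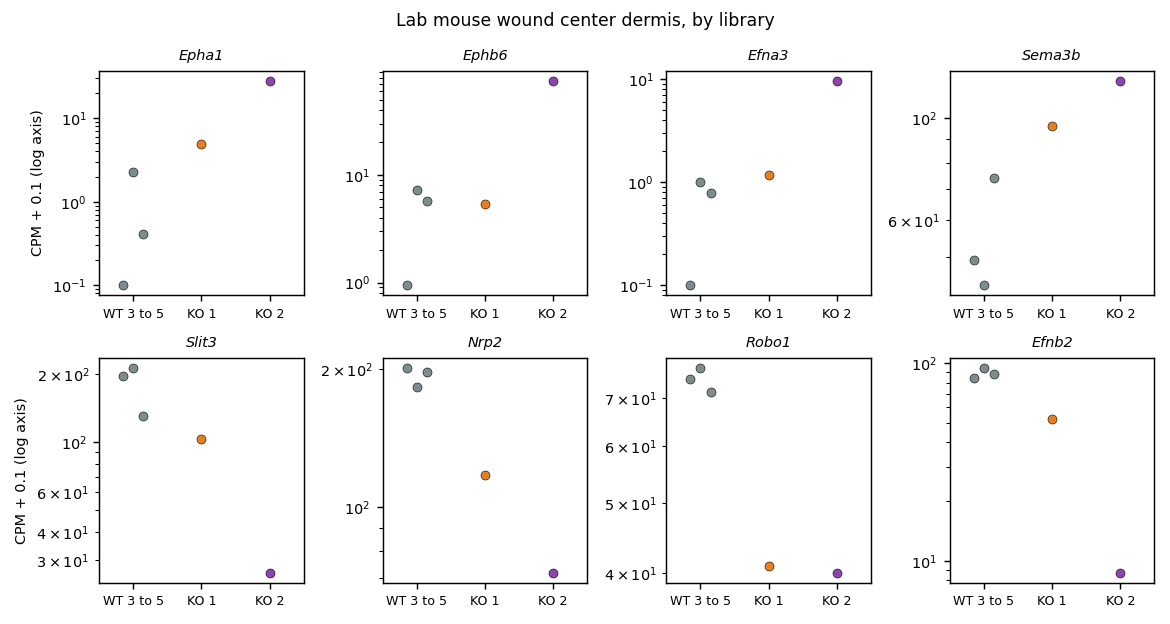
CPM + 0.1 (y axis, log scale) of 8 members in center dermis, for WT replicates 3 to 5 and KO replicates 1 and 2; each point is a library. Epha1, Ephb6 and Efna3 are highest in KO replicate 2, the library with 30720 CPM of keratinocyte markers, and Slit3, Nrp2 and Efnb2 are lowest there.

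In spiny mice the time course has replicates at 2 times in each tissue. In epidermis these are PWD14 and PWD21. Of 53 members tested, 8 were called higher and 10 lower at PWD14 (all genes: 46.6% called, 23.4% higher and 23.2% lower), and the median log2 difference was 0.04, beside −0.04 over all genes. The 8 higher members were 4 ephrins, 2 semaphorins, Nrp2 and Ephb3, while another ephrin, Efna3, was lower. Efnb2 measured 233 and 263 CPM at PWD14 and 114 and 97.8 CPM at PWD21, Efna5 109 and 61.4 CPM against 30.7 and 20.1 CPM, and Efnb1 156 and 74.1 CPM against 52.6 and 41.9 CPM. The times did not overlap for these 3 ephrins, whose log2 differences were 1.29 ± 0.17, 1.78 ± 0.28 and 1.33 ± 0.29. Efna1, Nrp2, Sema4f, Sema6b and Ephb3 were the other 5, and Efna1 (0.80 ± 0.16) and Nrp2 (0.93 ± 0.29) lost their calls with library sizes alone.

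Semaphorins were 6 of the 10 members lower at PWD14. Sema3d measured 0.459 and 1.61 CPM at PWD14 and 13.8 and 21.2 CPM at PWD21, and the single libraries of PWD0 and PWD28 had 273 and 47.9 CPM. It was thus lowest at PWD14 and highest in the unwounded library, with a log2 difference of −3.90 ± 0.49 between the replicated times. Sema4a measured 79.2 and 88.7 CPM at PWD14 and 235 and 252 CPM at PWD21 (−1.48 ± 0.16), and Sema3e 4.82 and 4.47 CPM against 15.5 and 15.8 CPM (−1.69 ± 0.29). Sema3c (−1.19 ± 0.29), Sema4b, Sema4d, the plexin Plxna3 (−1.46 ± 0.33), Efna3 (−1.12 ± 0.18), Epha1 and Neo1 were also lower. The hair follicle keratins rose from PWD14 to PWD21, all 7 called, from 47.7 to 74.5 CPM to 537.4 to 1119 CPM in sum. The single libraries had 134.5 CPM at PWD0 and 17730 CPM at PWD28. The part of these keratins in the differences of these members was not tested. With library sizes alone the split became 5 higher and 17 lower, with a median of all genes of −0.59. The count also depended on single libraries, as given at the end.

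In spiny dermis, PWD21 was compared with unwounded skin at PWD0. Of 61 members tested, 24 were called higher and 6 lower at PWD21 (all genes: 26.2% called, 12% higher and 14.2% lower). The median log2 difference of the members was 0.87, beside 0.03 over all genes. The count depended on single libraries, and its range with each left out is given at the end. By family, 7 semaphorins of 20 tested, 4 plexins of 9, both neuropilins, 2 Robos of 3, 2 netrins of 3, 2 EphA of 5 and 2 EphB of 5 were called higher, while no Slit and no Unc5 gene was called. Fibroblast and endothelial markers moved with the higher members, and some other dermal lists did not. Of 13 fibroblast markers, 11 had positive differences (5 called, median 0.67), with sums of 59170 to 101600 CPM at PWD0 and 117500 to 154000 CPM at PWD21. Of 8 endothelial markers, 7 had positive differences (3 called, median 0.93), with sums of 156 to 225 CPM and 343 to 365 CPM. Of 7 macrophage markers, 5 had positive differences (1 called). Negative differences were found for 7 of 8 Schwann markers (2 called, median −0.87) and for both lymphatic endothelial markers tested (2 called, median −2.95). Of 6 smooth muscle and pericyte markers, 4 were negative and none was called (median −0.63). The part of these cells in the differences of the 24 members was not tested.

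Ephb2 had the largest difference of the members. It measured 0.874 and 0.753 CPM at PWD0, 63.6 CPM in the PWD14 library, 39.3 and 80.0 CPM at PWD21 and 29.8 CPM in the PWD28 library. Every wound library lay far above both unwounded libraries, and the log2 difference between PWD21 and PWD0 was 6.08 ± 0.49 (FDR 0.000284 in edgeR's quasi-likelihood test). Efnb3, an ephrin that binds EphB receptors, measured 1.22 and 0.753 CPM at PWD0, 8.27 CPM at PWD14, 14.3 and 9.38 CPM at PWD21 and 14.4 CPM at PWD28 (3.50 ± 0.53). The Slit receptor Robo1 measured 15.6 and 15.8 CPM at PWD0, 155 CPM at PWD14, 129 and 132 CPM at PWD21 and 124 CPM at PWD28 (2.95 ± 0.28). Robo2 measured 37.1 and 31.9 CPM at PWD0, 73.9 CPM at PWD14, 272 and 237 CPM at PWD21 and 156 CPM at PWD28 (2.77 ± 0.29). Both Robos were higher in all 4 wound libraries than in either unwounded library, Robo1 already at PWD14 and Robo2 mostly at PWD21. Ntn3, a netrin (2.71 ± 0.44), and Plxna4, a receptor of class 3 and class 6 semaphorins (2.52 ± 0.52), rose as well, and Nrp1 (1.41 ± 0.27) and Nrp2 (2.10 ± 0.31) followed with smaller differences.

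The 6 members lower at PWD21 were Efna3, Sema3e, Ephb6, Epha1, Sema4a and Efna1. Efna3 measured 203 and 130 CPM at PWD0 and 6.88 and 10.6 CPM at PWD21, a log2 difference of −4.37 ± 0.38, and the single libraries had 4.42 CPM at PWD14 and 76.0 CPM at PWD28. Ephb6 measured 173 and 147 CPM at PWD0, 16.7 CPM at PWD14, 26.1 and 35.3 CPM at PWD21 and 97.9 CPM at PWD28 (−2.50 ± 0.30). Epha1 measured 39.3 and 40.9 CPM at PWD0, 5.58 CPM at PWD14, 11.7 and 18.1 CPM at PWD21 and 122 CPM at PWD28 (−1.54 ± 0.32). All 3 were lowest in the PWD14 library and higher again in the PWD28 library. Keratinocyte markers were also lower at PWD21 than at PWD0, with 11 of 13 called. Their sum was 7356 to 12180 CPM at PWD0, 1969 CPM at PWD14, 706 to 1332 CPM at PWD21 and 3936 CPM at PWD28. Unlike the 3 members, the sum was lowest at PWD21 and stayed below both PWD0 libraries at PWD28. The hair follicle keratins summed to 80.9 to 4333 CPM at PWD0, 1615 to 1934 CPM at PWD21 and 24020 CPM at PWD28, and the 4 adipocyte markers to 134 to 136 CPM at PWD0 and 2.31 to 3.99 CPM at PWD21. The part of these cells in the differences of the 6 members was not tested.

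**Figure D5:**
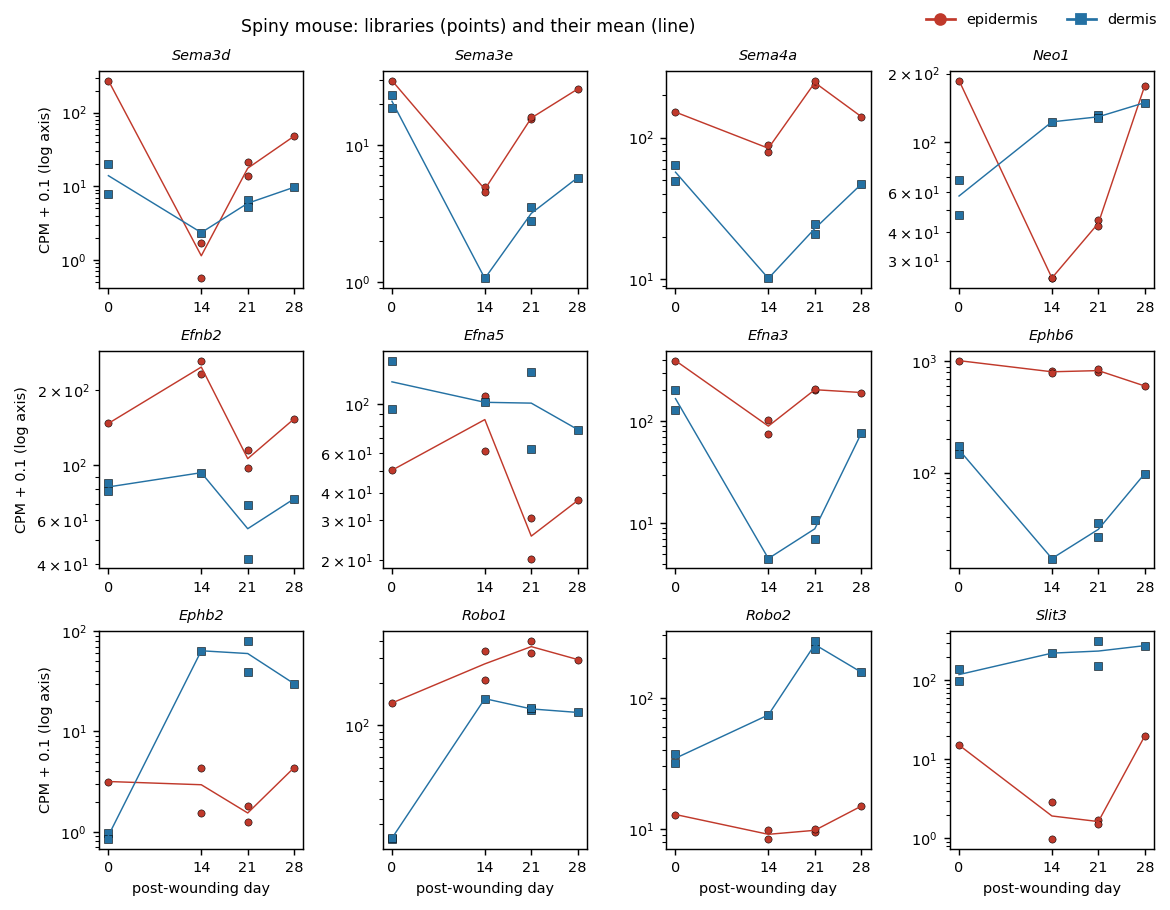
CPM + 0.1 (y axis, log scale) of members in spiny epidermis and dermis against post-wound day (x axis); points are libraries and lines join the means of a day, of which PWD0 and PWD28 in epidermis and PWD14 and PWD28 in dermis are single libraries. In dermis Ephb2 and Robo1 step up from PWD0 to PWD14 and stay up, while Ephb6 and Efna3 fall to their lowest values at PWD14; in epidermis Sema3d dips from 273 CPM at PWD0 to 0.459 and 1.61 CPM at PWD14.

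The intracellular and cell-surface partners of these receptors, a list of 62 other genes such as the collapsin response mediator Dpysl2, the Mical oxidoreductases and the Slit-Robo GTPase-activating proteins, were counted in the same comparisons. In spiny dermis 17 of 59 tested were called higher and 4 lower at PWD21 (all genes: 12% and 14.2%), and in spiny epidermis 13 of 57 were higher and 4 lower at PWD14 (all genes: 23.4% and 23.2%). None was called by edgeR's quasi-likelihood test between lab center and margin in epidermis (all genes: 1.24%) or dermis (0.85%), nor in KO dermis (0.0565%). At an unadjusted p under 0.05 there were 12 of 59 tested in epidermis (all genes: 23.5%). In dermis there were 6 of 62 (all genes: 15.8%), and in KO dermis 11 of 60 (all genes: 11.5%). Of 7 vascular endothelial growth factor genes, which share the neuropilins with the class 3 semaphorins, 5 were called lower in spiny PWD21 epidermis than in dermis (all genes: 33.5%), 5 at the lab center (25%) and 4 at the lab margin (26.8%). All 7 had positive differences between center and margin of the lab epidermis, 3 of them at an unadjusted p under 0.05 (all genes: 13.1% higher).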

How the data were processed

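The 25 deposited tables hold raw counts of reads per gene, made by the authors with STAR and htseq-count (HTSeq 0.6.0 per the submitters' processing notes) against the mouse genome mm10; the notes name STAR 2.4.1d and the methods another release. Reads were 75 bases long, strand-specific and paired-end for lab epidermis, strand-specific and single-end for lab dermis, and single-end without strand for spiny mouse. Reads of spiny mouse were mapped to the genome of another species, which can lower the counts of diverged genes.

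Each comparison was fitted with edgeR 4.0.16 (quasi-likelihood, TMM factors, filterByExpr) under R 4.3.3 on the libraries compared, with limma 3.58.1 installed and Benjamini-Hochberg adjustment over all genes tested; DESeq2 1.42.0 and the edgeR 3 estimate of the dispersion, added after the data were seen, were alternatives. SE is the absolute log2 difference divided by the square root of F. CPM used TMM factors over all libraries of a species. WT center dermis libraries were divided between the margin comparison and the KO comparison by the library names in the study. Per comparison, members with an FDR under 0.05, no overlap and a mean of at least 1 CPM were named, up to 6 in each direction; where fewer than 3 passed, an unadjusted p under 0.05 was used. The fits were tested on simulated data. The members and lists were chosen with earlier results of these data known. Promoter sequences and gene positions are from RefSeq, and strands, exon lengths and exonic overlaps from the GENCODE annotation of the same build. Replicate libraries all differed by more than sampling noise, and no paired design was available.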

Additional observations from a re-analysis of the deposited data

Results flagged for a closer look

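The center-margin contrast differed between lab epidermis and lab dermis, by edgeR's test of the interaction, for 8 members. The epidermal contrast was lower than the dermal one by −2.27 on the log2 scale for Sema3d, and higher by 1.85 for Nrp1, 2.28 for Efnb1, 2.08 for Plxnd1, 1.62 for Ephb3, 3.71 for Robo4, 2.70 for Slit3 and 4.36 for Efna3. Endothelial, fibroblast and pericyte markers were higher at the epidermal center, with the sums given above, and keratinocyte markers higher at the dermal margin; their part in these differences was not tested.

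Among the 5 WT center dermis libraries, Efnb3 stood apart at 2.62 CPM in replicate 2 and Sema7a at 143 CPM in replicate 4, where the next highest library had 79.1 CPM. They were 2 of 60 members examined by Dixon's criterion, which chance alone meets in about 1 of 20 groups. Sema7a in replicate 4 enters the KO comparison as a WT library, and Efnb3 in replicate 2 the center-margin comparison.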

How the results depend on the processing

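Where calls were few, they depended on the method. The shares of all genes called by the alternatives below are not given here, so their counts describe only that dependence. DESeq2 called 15 members between center and margin of lab epidermis, 3 in lab dermis and 3 in KO dermis, and the edgeR 3 dispersion estimate called 0 in lab epidermis. With all 5 WT center libraries 5 members were called in lab dermis, and the differences of Efnb1 and Neo1 changed sign to 0.245 and 0.137, neither called; the cause was not tested. A minimum of 10 counts in every library left 24 calls between tissues at the lab margin and 3 in the interaction, since fewer genes were tested, and RLE factors gave 5 in the interaction.

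Leaving out each library in turn gave 0 to 36 members in lab epidermis, 0 to 1 in lab dermis, 0 to 23 in KO dermis, 10 to 22 in spiny epidermis, 13 to 42 in spiny dermis and 0 to 10 in the interaction. The epidermis-dermis counts stayed at 50 to 57 in spiny, 35 to 47 at the lab center and 33 to 41 at the lab margin. Where a group was left with a single library, it was assumed to vary like the others. The shares of all genes called in these fits are not given here, so the ranges describe only how stable the counts were. Of the other 64 recalculated counts 56 lay within 1.5 times the reported count, and among the recalculated differences of named genes 615 kept direction and side of the threshold, 16 lost and 13 gained a call and 2 changed sign. No paired analysis was possible because the labels carry only a library number for each sample and no number that links libraries of different groups; the replicate numbers used here follow accession order. Spiny PWD0 libraries were the shallowest, which limits members near 0 there.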
